A study of Mus musculus with 43 samples.

Results

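Dapl1 and Igfbp4 are 2 of the 22180 genes measured here in mouse CD4 T cells, and both are known from naive and resting lymphocytes. The pair was chosen by name, with results of these arrays already known, and each gene is represented by 1 probe set. Dapl1 was selected on its measured antigen effect, which differed between day 30 and day 10 at both antigen doses. Its values in the 6 groups behind that choice are therefore a description and carry no test. For Igfbp4 no contrast was given as the reason, but its low level in primed cells was already known when it was named, so its difference from naive cells is no independent evidence.

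Dapl1 (death-associated protein-like 1) is a small protein related to Dap. In mouse CD8 T cells it is known to restrain activation of the transcription factor NFATc2, and in zebrafish and Xenopus eggs it is known as a factor bound to dormant ribosomes. Igfbp4 is a secreted binding protein that keeps insulin-like growth factors (IGFs) from their receptor Igf1r until a protease such as Pappa cleaves it. Both transcripts are used as markers of naive T cells, and Dapl1 also of stem-like CD8 T cells.

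The cells were transferred AND T cells, which carry 1 transgenic T cell receptor for a moth cytochrome c peptide, lack Rag2, bear CD45.1 and were sorted back out of recipient mice. In iMCC recipients dendritic cells make the peptide while the mouse drinks doxycycline. All iMCC mice drank 100 µg/ml until day 3. From then on the none groups drank 0, the low groups 10 and the intermediate (int) groups 100 µg/ml until the sort on day 10 or day 30. The off group kept 100 µg/ml to day 10 and then had 0 until day 30. The high group came from cMCC mice on day 10. There the peptide is made constitutively by MHC class II positive cells without doxycycline, and, per the labels, the AND cells have died by day 30. Naive AND cells spent 3 days in mice without a transgene before the sort. An anti-CD40 antibody that activates dendritic cells was given before transfer; the labels do not state separately whether the high and naive groups received it. Every group had 5 arrays except int and high on day 10, which had 4. Whether arrays of 1 group stem from different mice is not stated in the labels, so the p-values rest on a spread between samples that may be technical, and precision is limited by the number of arrays.

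Dapl1 lies on chromosome 2 (GRCm38, 59484653 to 59505020) and Igfbp4 on chromosome 11 (99040005 to 99052655), and both are annotated as protein coding. The 250 bases before the transcription start in a RefSeq promoter table (GRCm38.p6) are printed because both genes are higher in naive cells than under intermediate antigen while only Dapl1 reaches the naive level in a primed group. For Dapl1 that start is the first base of the gene, at 59484653. For Igfbp4 it is 99041244, which lies inside the annotated gene, so its window does too. Capitals mark matches to any of 5 short motifs, searched on both strands: CAAAG (the core of TCF and LEF factors), GTAAACA (FOXO), GGAAAA (the NFAT core), TGANTCA (AP-1 and BACH2) and CACCC (the KLF core).
Dapl1, chr2:59484403-59484652, plus strand: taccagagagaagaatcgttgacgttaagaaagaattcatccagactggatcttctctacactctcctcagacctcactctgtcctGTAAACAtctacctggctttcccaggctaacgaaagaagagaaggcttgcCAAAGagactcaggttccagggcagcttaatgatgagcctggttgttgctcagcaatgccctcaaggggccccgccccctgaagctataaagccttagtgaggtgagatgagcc
Igfbp4, chr11:99040994-99041243, plus strand: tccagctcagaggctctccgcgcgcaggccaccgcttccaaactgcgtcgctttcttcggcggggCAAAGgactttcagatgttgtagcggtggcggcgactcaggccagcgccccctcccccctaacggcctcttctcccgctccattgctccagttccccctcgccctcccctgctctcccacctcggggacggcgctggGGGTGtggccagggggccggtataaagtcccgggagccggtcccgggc
The Dapl1 window held 1 GTAAACA, at -164 to -158 from the table's start, a motif found in 3.17% of 32851 such windows. It also held 1 CAAAG, at -114 to -110. Counted from 99041244, the Igfbp4 window held 1 CAAAG, at -185 to -181, and 1 CACCC on the minus strand, at -48 to -44. CAAAG and CACCC are common, in 48.6% and 52.0% of windows. Neither window held GGAAAA (20.4% of windows) or TGANTCA (6.75%), and no match overlapped another. G and C made up 50.0% of the Dapl1 window and 69.2% of the Igfbp4 window, and the median over all windows was 52.4%. A match is a description of these letters and not a binding site.

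The defining markers of the labelled cell type were present, Cd4 averaging 9.12 to 10.01 and Cd3e 10.59 to 11.44 over the 9 groups, with Cd8a at 2.99 to 3.31 (log2 signal). Naive replicates 3 and 4 stood apart in markers of other cells. The 38 primed arrays spanned 3.86 to 4.39 for the mean log2 level of 6 measured B cell markers and 2.96 to 4.52 for that of 8 myeloid and dendritic cell markers. The B cell list stood at 6.43 and 5.43 on naive 3 and 4 and at 4.30 to 4.65 on the other naive arrays, and the myeloid list at 6.26 and 5.81 against 3.50 to 4.52. The mean of Cd8a and Cd8b1 was 4.22 and 4.43 on naive 3 and 4 and 3.51 to 3.92 on the other naive arrays. Primed arrays reached 4.12. Values that rest on the naive group are therefore also given without naive replicates 3 and 4.

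On day 30 Dapl1 was lower at each step up in the dose of persisting antigen. On day 30 the none arrays read 10.59, 10.47, 10.29, 10.57 and 10.62 (log2 signal). The low arrays read 9.08, 8.79, 9.22, 8.92 and 9.83. The int arrays read 8.05, 8.17, 8.08, 8.02 and 8.25. The 3 groups did not overlap anywhere along the dose. Their means were 10.51 ± 0.13, 9.17 ± 0.40 and 8.11 ± 0.09 (SD, n = 5 each), so that low lay 2.53-fold and int 5.26-fold below none. In these bulk samples, fewer cells that carry the transcript and less transcript per cell cannot be told apart.

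On day 10 the dose series looked different. The none arrays read 9.64, 9.39, 9.53, 10.24 and 9.84, and the low arrays 9.62, 10.03, 9.96, 10.16 and 9.93. The int arrays read 9.31, 8.31, 8.60 and 8.94. Low and none arrays overlapped, while each int array lay below all of both groups. The means were 9.73 ± 0.33 for none, 9.94 ± 0.20 for low (SD, n = 5 each) and 8.79 ± 0.43 for int (SD, n = 4). The low group thus stood 0.21 above none on the log2 scale, and int stood at -0.94 from it, 1.92-fold lower. Over all genes limma called 0.00451% for low and 1.24% for int on day 10, and 0.654% and 2.21% on day 30, from which nothing is read about Dapl1.

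**Figure D1:**
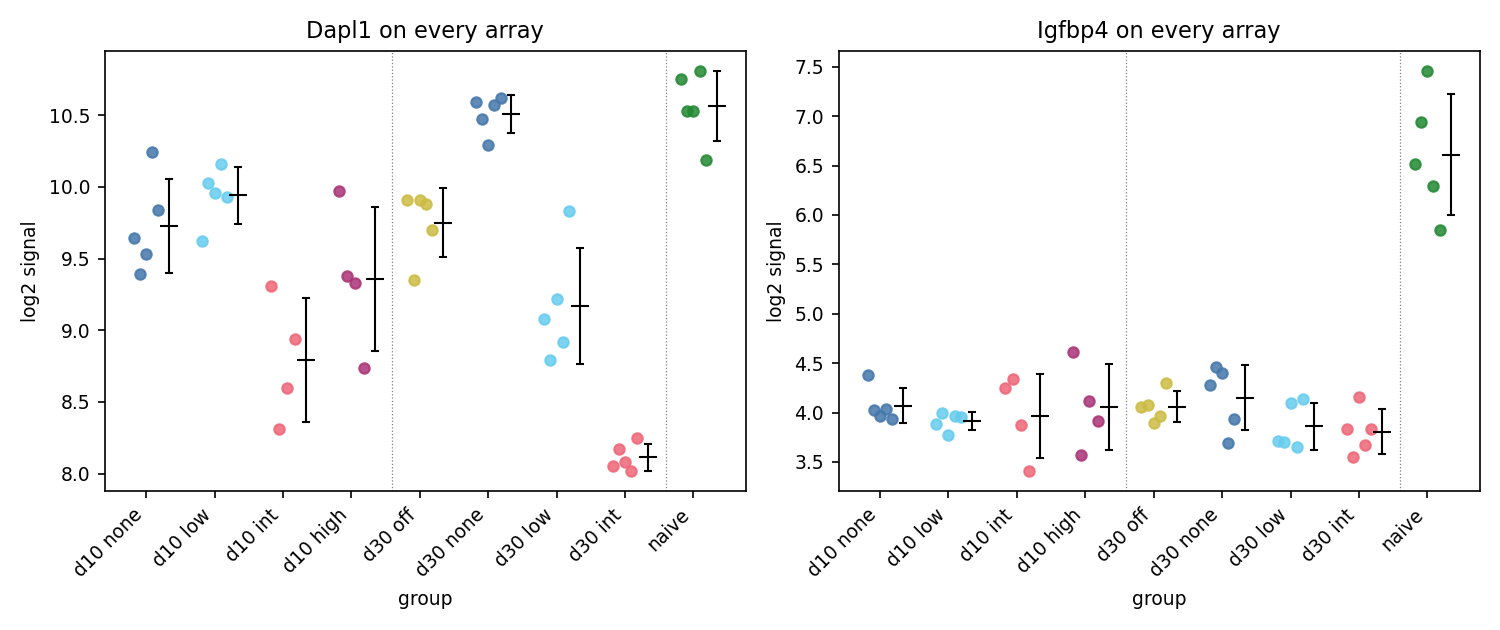
Log2 signal of Dapl1 (left) and Igfbp4 (right) on each of the 43 arrays by group, with the mean and SD beside the points. Dapl1 is lowest in day 30 int cells (8.02 to 8.25) and as high in day 30 none as in naive cells, while Igfbp4 is at 3.41 to 4.61 in primed cells and 5.85 to 7.46 in naive cells.

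These differences between the days are what singled out Dapl1. Subtracting the day 10 effect of antigen from the day 30 effect gave -1.55 for low and -1.46 for int. Among all genes, 7 (0.0316%) had a called difference between days for low and 20 (0.0902%) for int, and 3 were called at both doses. Besides Dapl1 (-1.55 and -1.46 for low and int) these were Kcnma1, a potassium channel (1.71 and 1.72), and Atp1b1, a sodium pump subunit (-2.01 and -1.68). Just outside lay Hspa1a, a heat-shock chaperone, with 4.09 for low, which was not called, and 5.29 for int. Both sides of the comparison moved for Dapl1: day 30 none arrays averaged 0.78 above day 10 none, whereas day 30 low stood at -0.77 from day 10 low and day 30 int at -0.68 from day 10 int. Between the none groups 2 of 8 myeloid markers were called lower on day 30, S100a8 (-3.12 ± 0.79, limma adjusted p = 0.0191) and S100a9 (-2.86 ± 0.67, limma adjusted p = 0.0117), with the list's mean at 2.96 to 3.36 on day 30 and 3.08 to 4.34 on day 10; their part was not tested. All 5 day 30 none arrays exceeded every day 10 none array in Dapl1, and all 5 day 30 int arrays lay below every day 10 int array. Per the labels day 30 was a second sort series, and the day of sorting cannot be told apart from it.

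The high, off and naive arrays took no part in the choice of Dapl1, and contrasts with them were tested with limma over all genes. Withdrawal of antigen on day 10 was followed by a higher Dapl1 level. The off arrays read 9.91, 9.35, 9.91, 9.88 and 9.70, a mean of 9.75 ± 0.24 (SD, n = 5), against 8.02 to 8.25 in the int arrays of the same day. Each off array lay above every int array, and the difference was 1.64 ± 0.18 (SE, 3.11-fold, limma adjusted p = 1.75e-07), in a comparison in which 0.464% of genes were called. The off cells also exceeded the day 10 int cells, the state in which they were taken off the drug, by 0.96 ± 0.19 (limma adjusted p = 0.00241, 1.94% of genes called), with all 5 arrays above every day 10 int array. The int arrays of both days had served in the choice of Dapl1, so only the off side of these contrasts is independent of it. The contrast with day 10 int also crosses the days and their sort series, from which withdrawal cannot be told apart there. Between the same days, day 30 minus day 10, none stood at 0.78, low at -0.77 and int at -0.68.

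The off cells did not reach the level of cells left without antigen from day 3. All 5 off arrays lay below every day 30 none array, by -0.76 ± 0.18 (limma adjusted p = 0.0497, 0.266% of genes called). Myeloid markers moved in this contrast too: 2 of 8 measured were called higher in off, S100a8 (3.44 ± 0.79, limma adjusted p = 0.0365) and S100a9 (2.87 ± 0.67, limma adjusted p = 0.0458), and the list's mean was 3.46 to 4.52 on off arrays and 2.96 to 3.36 on none arrays. Their part in the Dapl1 difference was not tested. The Dapl1 call stood at the threshold: it held in 6 of 19 alternative settings, and leaving out any single array except day 30 none replicate 3 ended it (adjusted p up to 0.184, the difference -0.81 to -0.66). Against day 30 low, off was higher by 0.58 ± 0.18, which was not called (limma adjusted p = 0.256, 0.167% of genes called, 95% interval 0.22 to 0.95), with 3 of 5 off arrays above all low arrays. The none and low arrays of day 30 had served in the choice of Dapl1, so only the off side of these contrasts is independent of it. Off cells lay below naive cells by -0.81 ± 0.18 (limma adjusted p = 0.00304), again with all 5 arrays below every naive array.

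Constitutive antigen in cMCC mice left Dapl1 between the none and int levels of day 10, with neither difference called. The 4 high arrays read 9.97, 9.38, 9.33 and 8.74, a mean of 9.36 ± 0.50 (SD, n = 4). They overlapped both the int and the none arrays of day 10. High minus none was -0.37 ± 0.19 (limma adjusted p = 0.331, 5.25% of genes called, 95% interval -0.76 to 0.01). High minus int was 0.57 ± 0.20, not called either (limma adjusted p = 0.14, 2.99% of genes called, 95% interval 0.16 to 0.97). The second contrast depended on single arrays: without int replicate 1 it was 0.74 (adjusted p = 0.0492), and without high replicate 5 it was 0.77 (adjusted p = 0.019). The none and int arrays of day 10 had served in the choice of Dapl1, so only the high side of both contrasts is independent of it. High and int cells differ in recipient strain and in the cells that present the peptide as well as in dose.

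Set against naive cells, Dapl1 was lower in 7 of the 8 primed groups, the exception being day 30 none. The day 30 none arrays lay at 10.29 to 10.62. The naive arrays read 10.75, 10.53, 10.53, 10.81 and 10.19, a mean of 10.56 ± 0.24 (SD, n = 5). Day 30 none differed from them by -0.05 ± 0.18 (limma adjusted p = 0.92, 95% interval -0.42 to 0.31), and every day 30 none array lay between the lowest and highest naive array. The differences of the called groups ran from -0.62 ± 0.18 in day 10 low (limma adjusted p = 0.0408) to -2.45 ± 0.18 in day 30 int (limma adjusted p = 8.95e-14). Day 10 none stood at -0.83 ± 0.18 (adjusted p = 0.00283), day 10 high at -1.21 ± 0.19 (adjusted p = 1.36e-05), day 30 low at -1.39 ± 0.18 (adjusted p = 4.52e-07) and day 10 int at -1.77 ± 0.19 (adjusted p = 6.41e-09), all by limma. The none, low and int arrays had also served in choosing Dapl1, so only the naive side is independent there. Of all genes limma called 3.3% in day 10 none, 3.47% in day 10 low, 3.15% in day 10 int, 4.82% in day 10 high, 4.33% in day 30 none, 3.66% in day 30 low, 4.47% in day 30 int and 4.36% in day 30 off against naive. The shares called lower, in the same order, were 1.41%, 1.09%, 1.01%, 1.9%, 2.35%, 1.83%, 2.06% and 1.85%. These 8 comparisons share the naive arrays. The day 10 low call ended without day 10 low replicate 1, 2, 3 or 5 or naive replicate 1, 2, 3 or 4 (adjusted p up to 0.145). Without naive replicates 3 and 4 together it was -0.55 (adjusted p = 0.272), and day 10 none was -0.76 (adjusted p = 0.0529), while the other 5 calls held.

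In the order of group means Dapl1 ran from naive (10.56) over day 30 none (10.51), day 10 low (9.94), day 30 off (9.75), day 10 none (9.73), day 10 high (9.36), day 30 low (9.17) and day 10 int (8.79) to day 30 int (8.11). Of the 8 steps between neighbours only 2 were free of overlap between arrays, day 30 none to day 10 low and day 10 int to day 30 int. At every other step the difference was smaller than the larger of the 2 SDs. Differences between groups made up 88.6% of the variance of Dapl1 over the 43 arrays, with a median of 25.2% over all genes.

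Igfbp4 separated the primed groups, all at a similar level, from naive cells. On the 38 primed arrays the level was 3.41 to 4.61. The naive arrays read 6.52, 6.94, 7.46, 6.29 and 5.85, a mean of 6.61 ± 0.62 (SD, n = 5), so that the lowest naive array stood above the highest primed one. No detection calls were used, and whether the primed level exceeds background was not tested.

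**Figure D2:**
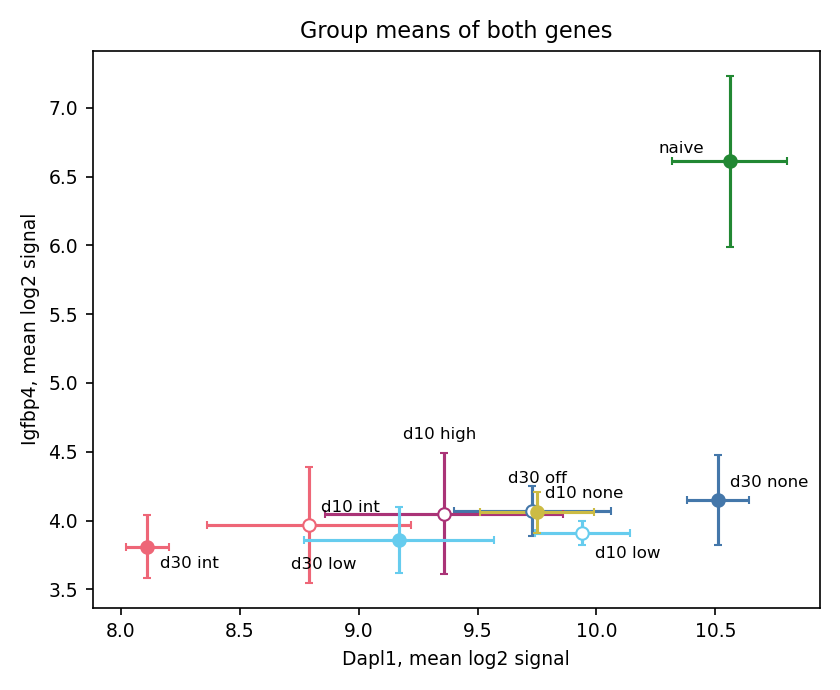
Mean log2 signal of Igfbp4 (vertical) against Dapl1 (horizontal) in the 9 groups, with SDs as bars; open circles are day 10 groups. Day 30 none and naive cells share the Dapl1 level (10.51 and 10.56) but not the Igfbp4 level (4.15 and 6.61).

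Every primed group was lower than naive cells in Igfbp4, with each of its arrays below every naive array. The differences were -2.54 ± 0.21 in day 10 none, -2.70 ± 0.21 in day 10 low, -2.64 ± 0.22 in day 10 int and -2.56 ± 0.22 in day 10 high. On day 30 they were -2.46 ± 0.21 in none, -2.75 ± 0.21 in low, -2.80 ± 0.21 in int and -2.55 ± 0.21 in off. These correspond to levels 5.50 to 6.98-fold below naive, with limma adjusted p from 1.24e-13 to 1.15e-11. The 8 comparisons share the naive arrays and are not independent of each other. Besides priming, naive cells differ from all primed groups in time after transfer and recipient genotype, which cannot be told apart here. Whether naive recipients had the anti-CD40 antibody is not stated separately in the labels. Doxycycline was absent from the high group as well as the naive group, and Igfbp4 was 4.05 ± 0.44 in high cells (SD, n = 4). The part of doxycycline in the difference from naive cells was not tested.

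Igfbp4 was read beside the markers of other cells on each naive array. Replicates 3 and 4, highest in both lists, had Igfbp4 at 7.46 and 6.29. Replicate 5, with the B cell list at 4.65 and the myeloid list at 4.52, had 5.85. On naive replicates 1 and 2 the myeloid list stood at 3.81 and 3.50, inside the range of the primed arrays, the B cell list stood at 4.47 and 4.30 against at most 4.39 on a primed array, and Igfbp4 was 6.52 and 6.94. Without naive replicates 3 and 4, Igfbp4 in day 30 none stood at -2.28 from naive (limma adjusted p = 6.6e-10) and in day 30 int at -2.63 (limma adjusted p = 8.49e-12). Under any alternative setting the highest adjusted p of the 8 comparisons was 0.000218. Stromal cells are another known source of Igfbp4. The mean of 8 measured stromal markers, Col1a2 and Pdgfrb among them, was 2.94 to 3.32 on primed arrays and 2.98 to 3.17 on naive ones. The part of other cells in the naive Igfbp4 level was not tested.

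**Figure D3:**
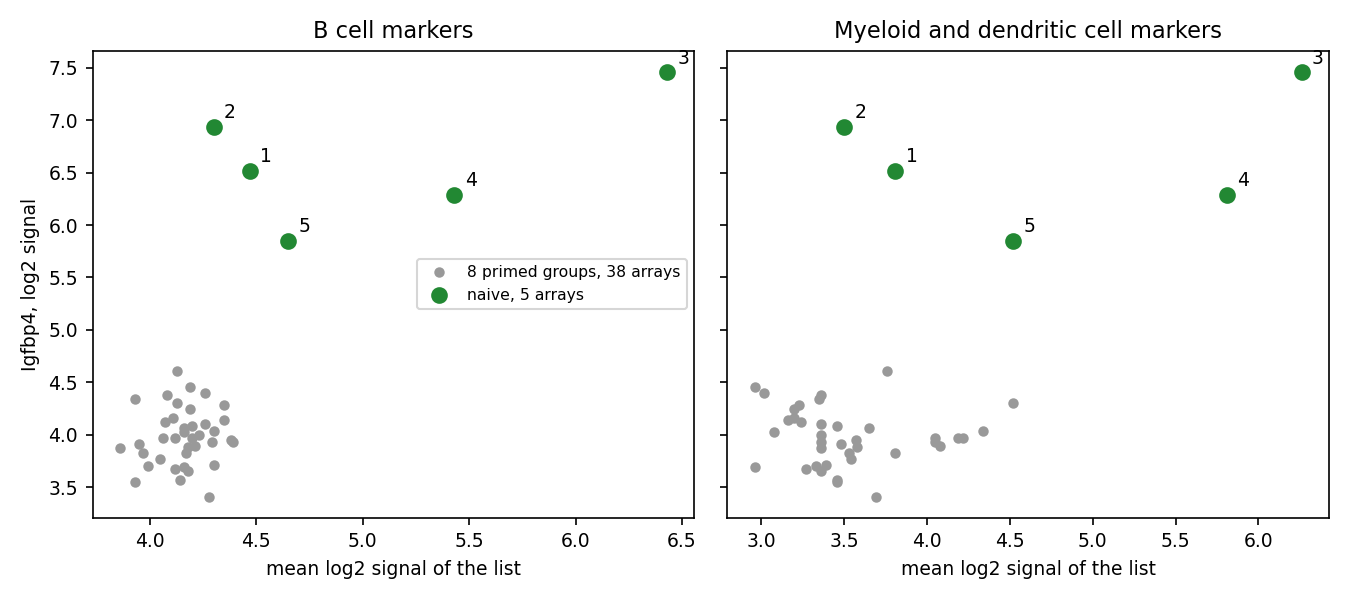
Igfbp4 log2 signal (vertical) against the mean log2 signal of B cell markers (left) and of myeloid and dendritic cell markers (right) on each array; numbers are naive replicates. Replicates 1 and 2 have Igfbp4 at 6.52 and 6.94 with myeloid markers at 3.81 and 3.50, within the primed range. Replicate 3, highest in both lists, has the highest Igfbp4, 7.46.

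Antigen, its dose, its withdrawal and the day made no called difference in Igfbp4. On day 10 the none arrays read 4.38, 4.03, 3.97, 4.04 and 3.93, the low arrays 3.88, 4.00, 3.77, 3.97 and 3.95, the int arrays 4.25, 4.34, 3.87 and 3.41, and the high arrays 4.61, 3.57, 4.12 and 3.91. On day 30 the none arrays read 4.28, 4.46, 4.40, 3.69 and 3.93, the low arrays 3.71, 3.70, 4.10, 3.65 and 4.14, the int arrays 3.83, 3.55, 4.16, 3.67 and 3.83, and the off arrays 4.06, 4.08, 3.89, 3.97 and 4.30. Arrays of all 8 groups overlapped. The largest antigen effect was that of int on day 30, -0.34 ± 0.21 (limma adjusted p = 0.514, 2.21% of genes called, 95% interval -0.77 to 0.08). Low on day 30 stood at -0.29 ± 0.21 (adjusted p = 0.654, 0.654% of genes called), and high on day 10 at -0.02 ± 0.22 (adjusted p = 0.986, 95% interval -0.47 to 0.43), both by limma. Off exceeded int by 0.25 ± 0.21 (limma adjusted p = 0.865, 95% interval -0.17 to 0.67). In neither dose did the antigen effect differ between days by a called amount (low -0.14 ± 0.30, adjusted p = 0.991, and int -0.24 ± 0.30, adjusted p = 0.937, limma). Over all 17 contrasts without naive cells limma called Igfbp4 in 0, and 0 had an unadjusted p under 0.05. Among those not given elsewhere, limma called 0.541% of genes in int against low on day 10, 0.546% on day 30, 2.87% in low and 0.712% in int between the days. The intervals leave room for changes, down to -0.77 for int against none on day 30. The 8 primed group means spanned 0.34, and the median span over all genes was 0.42.

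Between day 10 and day 30 the cells left without antigen thus differed between the genes. Day 30 none cells stood 0.78 above day 10 none in Dapl1, which is a description, and 0.08 ± 0.21 above it in Igfbp4 (limma adjusted p = 0.883, 3.43% of genes called, 95% interval -0.34 to 0.50). Over the 9 group means the Pearson correlation of both genes was 0.56, over the 8 primed group means 0.76, over the 43 arrays 0.52, and over the arrays' deviations from their group means 0.18. These points share arrays, and the 8 primed means of Igfbp4 lie within 0.34 of each other.

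**Figure D4:**
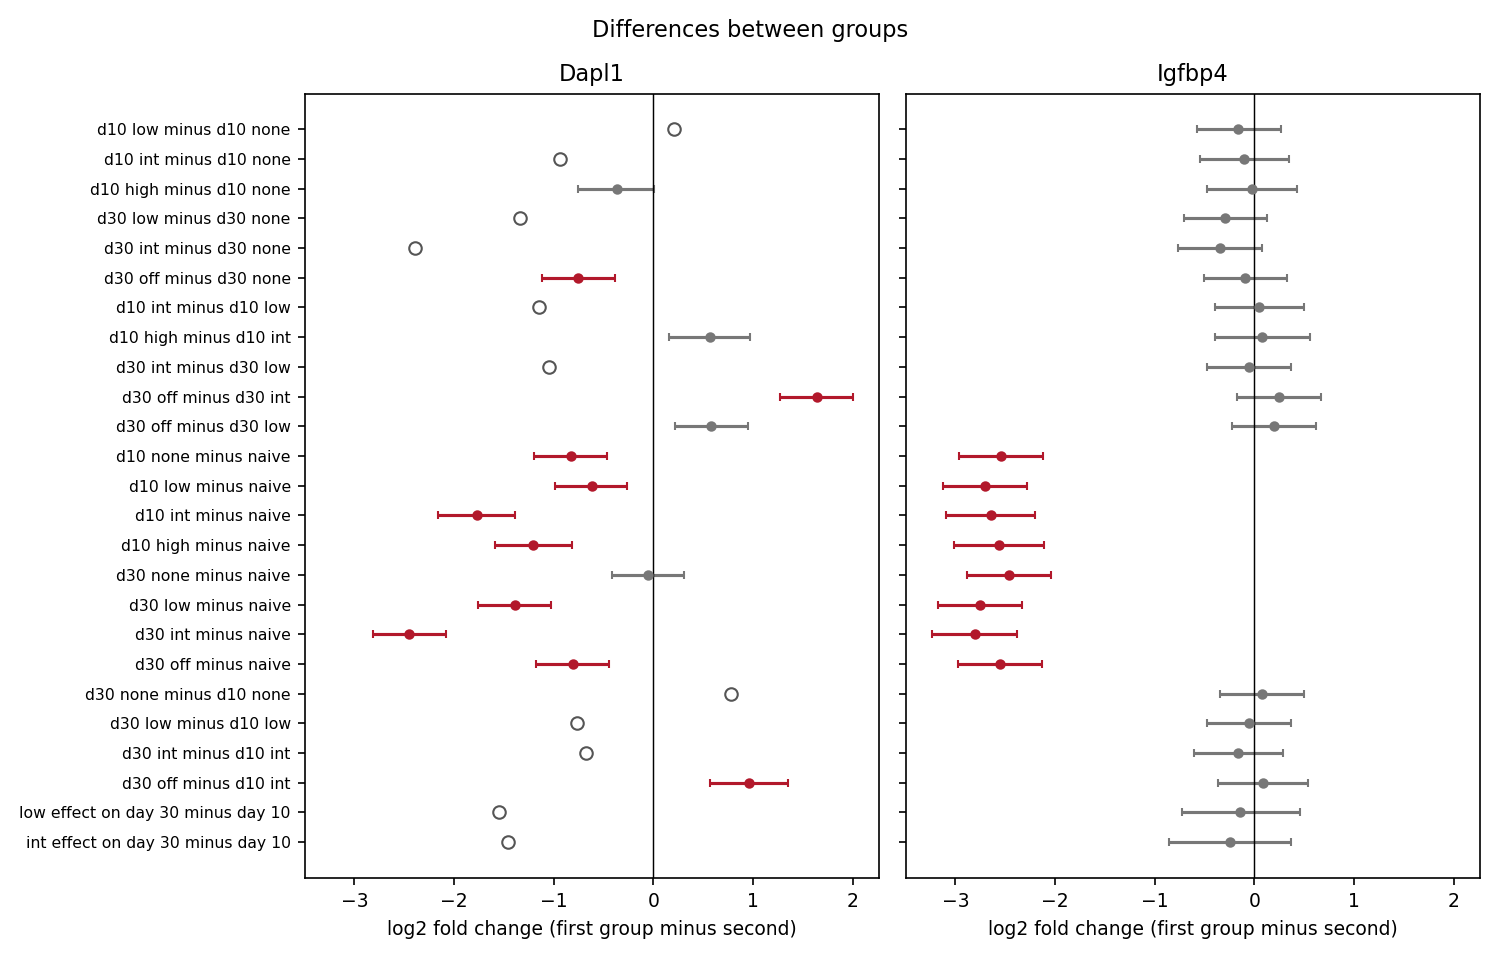
Log2 fold changes of Dapl1 (left) and Igfbp4 (right) in 25 contrasts, first group minus second, with 95% intervals; red marks a limma adjusted p under 0.05, grey none, and open circles are the Dapl1 contrasts given without a test. Dapl1 spreads over both sides of 0 (-2.45 to 1.64), while Igfbp4 is called in the 8 contrasts with naive cells only.

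The genes whose group means followed Dapl1 most closely were named by their Pearson correlation over the 9 group means, among 1877 genes whose means span at least 1 on the log2 scale. The 6 highest were Prkd3, protein kinase D3 (0.915), the transcription factor Myc (0.912), Gramd1a, a sterol transfer protein (0.909), Nsmce1, a subunit of the SMC5/6 complex (0.909), Pdlim1, a PDZ and LIM domain protein (0.899), and Cd40lg, the CD40 ligand of helper T cells (0.888). The same 6 genes ranked highest over the 43 arrays (0.732 to 0.790). Lowest were Setbp1 (-0.963), Chst11, a chondroitin sulfotransferase (-0.945), and Rtl8c (-0.921). Over the 43 arrays the most negative were instead the inhibitory receptors Tigit (-0.807) and Lag3 (-0.777), with Rabgap1l (-0.777). In day 30 none, low, int and off cells Lag3 stood at 4.95, 7.39, 9.22 and 6.66, the reverse of the Dapl1 order of 10.51, 9.17, 8.11 and 9.75. On day 10 the order was not reversed: in none, low, int and high cells Lag3 stood at 5.09, 5.71, 9.21 and 9.75, and Dapl1 at 9.73, 9.94, 8.79 and 9.36. Lag3 was named by its correlation with Dapl1 over these same arrays, so both orders are descriptions and no independent evidence. Without naive replicates 3 and 4, Commd8 (0.931) and Me2 (0.906) entered the 6 in place of Myc and Pdlim1. Signals were low for Prkd3 (group means 2.80 to 4.42), Chst11 (3.14 to 5.40) and Setbp1 (3.65 to 5.04). The median of an array was 3.28 to 3.44, and whether these genes exceed background was not tested.

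For Igfbp4 the likeness measure is dominated by the naive group, the one group mean that stands apart. The highest were H2-Ab1 (0.991), Pik3r3, a regulatory subunit of PI3 kinase (0.989), Arhgap20, a GTPase-activating protein (0.987), H2-DMb2 (0.985), Cd79a (0.984) and H2-Ea (0.980). Of these, H2-Ab1, H2-DMb2 and H2-Ea encode proteins of MHC class II presentation and Cd79a a chain of the B cell receptor. H2-Ab1 and Cd79a are themselves in the marker lists in which naive replicates 3 and 4 stood apart. Without naive replicates 3 and 4, Arhgap20 (0.985), Qser1 (0.984), Pik3r3 (0.983), H2-Ab1 (0.981), Igsf23 (0.978) and Ankrd55 (0.976) were highest and H2-DMb2, Cd79a and H2-Ea were not among the 6. Over single arrays Arhgap20 was closest (0.937), at 2.80 to 3.24 in the primed groups and 7.10 in naive cells. The most opposite were Tbx21, the Th1 factor T-bet (-0.974), Itgb1, an integrin chain (-0.974), and Cxcr3, a Th1 chemokine receptor (-0.968).

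Other resting-cell genes were mixed. Of 27 listed naive and resting T cell genes 24 were measured. Against naive cells, day 30 none had 3 of them higher, 8 lower and 13 not called (1.98% of all genes called higher and 2.35% lower), with a median of -0.32 and a median of 0.02 over all genes. Int against none on day 30 had 0 higher and 6 lower (1.42% and 0.794% of all genes), a median of -0.42 against -0.01 over all genes, and high against none on day 10 had 0 higher and 13 lower (2.77% and 2.48%), a median of -0.80. Off against int on day 30 had 3 higher and 0 lower (0.266% and 0.198%). Those 3 were Il7r, the IL-7 receptor chain (3.89 ± 0.42, adjusted p = 1.38e-07), the chromatin organiser Satb1 (1.20 ± 0.24, adjusted p = 0.00644) and the actin cross-linker Actn1 (0.98 ± 0.23, adjusted p = 0.0247), all by limma.

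The 4 listed genes with the widest spans were Satb1, Il7r, Actn1 and Cd55, and their differences from Dapl1 were not tested. Satb1 was lower under int antigen on day 30 (-1.81 ± 0.24, limma adjusted p = 2.17e-06) but was lower in day 30 none than in naive cells (-0.88 ± 0.24, limma adjusted p = 0.0258). Il7r was higher in day 30 none than in naive cells (2.77 ± 0.42, limma adjusted p = 1.26e-05), and so was Cd55, a complement regulator (1.20 ± 0.33, limma adjusted p = 0.0249). Actn1 was lower in high cells (-2.25 ± 0.24 against day 10 none, limma adjusted p = 4.19e-09), where Dapl1 stood at -0.37 ± 0.19 (limma adjusted p = 0.331).

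**Figure D5:**
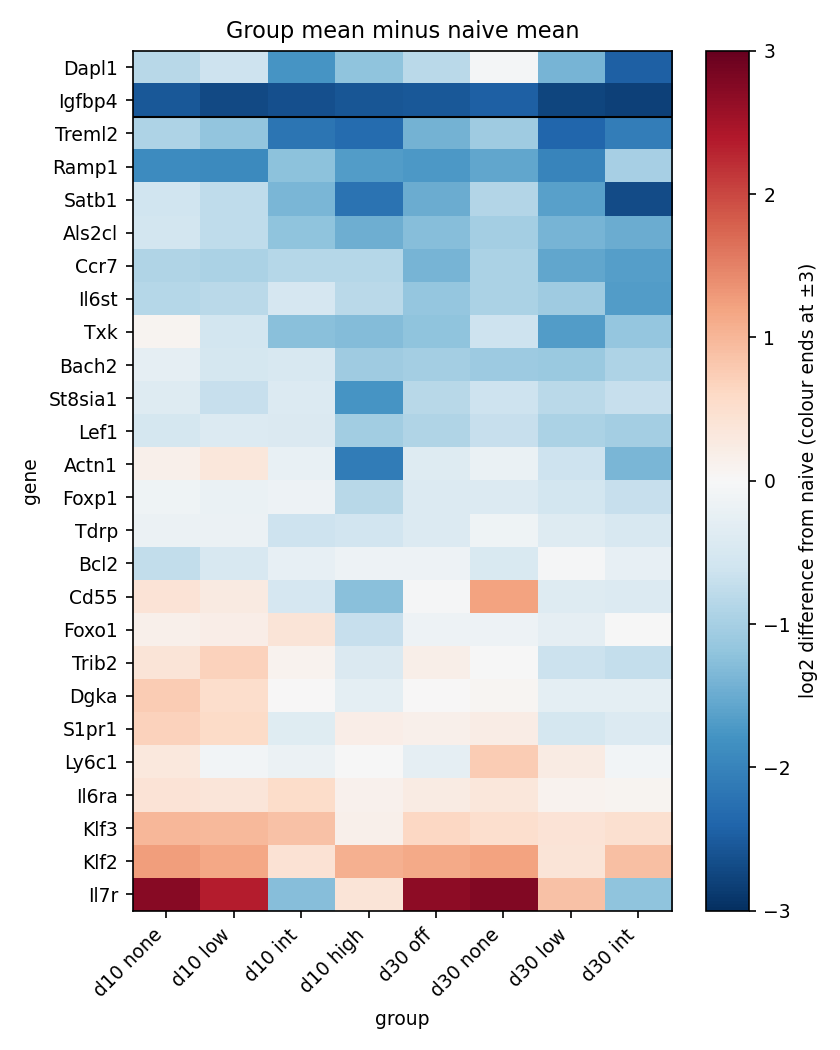
Group mean minus naive mean (log2, colour) for Dapl1, Igfbp4 and the 24 measured naive and resting T cell genes in the 8 primed groups. Igfbp4 is uniformly low (-2.80 to -2.46), Dapl1 is level with naive only in day 30 none, and the listed genes range from lower to higher, Il7r reaching 2.77.

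Among NFAT and calcineurin genes, 9 of 10 were measured. Int against none on day 30 had 1 higher and 1 lower (1.42% and 0.794% of all genes). These were Nfatc1, an NFAT factor induced by receptor signals (1.02 ± 0.21, limma adjusted p = 0.00216), and Ppp3ca, a catalytic subunit of calcineurin (-1.88 ± 0.28, limma adjusted p = 2.03e-05). Nfatc2, the factor that Dapl1 is known to restrain, was not called there (-0.23 ± 0.21, limma adjusted p = 0.725). Against naive cells it was called higher in 4 of the 8 primed groups: day 10 none (0.93 ± 0.21, limma adjusted p = 0.00545), day 10 low (1.06 ± 0.21, limma adjusted p = 0.00106), day 10 high (0.92 ± 0.23, limma adjusted p = 0.00675) and off (0.79 ± 0.21, limma adjusted p = 0.0192). In the other 4 groups it stood at 0.30 to 0.61. Of all genes limma called 3.3%, 3.47%, 4.82% and 4.36% in the groups with a call, in either direction. High against none on day 10 had 2 listed genes higher and 1 lower (2.77% and 2.48% of all genes). Higher were Rcan1 (1.69 ± 0.29, limma adjusted p = 7.51e-05) and Nfatc1 (0.93 ± 0.22, limma adjusted p = 0.00556). Lower was Ppp3ca (-1.11 ± 0.30, limma adjusted p = 0.0179).

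Of the IGF axis all 18 listed genes were measured. Igf1r, the receptor whose ligands Igfbp4 holds, was higher under int antigen on day 10 (1.36 ± 0.34, limma adjusted p = 0.029, 1.24% of genes called) and day 30 (1.65 ± 0.32, limma adjusted p = 0.00123) and in high cells (1.81 ± 0.34, limma adjusted p = 0.000318), each against none. Its group means were 3.08 in day 10 none, 4.44 in int and 4.90 in high, and 3.26 in day 30 none, 3.85 in low, 4.91 in int and 4.29 in off. In neither none group did Igf1r differ from naive cells by a called amount (day 10 -0.10 ± 0.32, adjusted p = 0.965, and day 30 0.07 ± 0.32, adjusted p = 0.941, limma). Both none means and the naive mean of 3.19 lay below the array medians of 3.28 to 3.44. Whether they exceed background was not tested. Igf2r, which takes up IGF2 for degradation, was higher under int antigen on day 30 (0.74 ± 0.20, limma adjusted p = 0.0359). Igfbp7 was higher in high cells (2.21 ± 0.25, limma adjusted p = 1.08e-08). Besides Igf1r and Igf2r, 16 members were not called in int against none on day 30, Igfbp7 among them (2.21% of all genes called). Igfbp7 signals were low there too, 3.39 in none and 3.80 in int.

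Of the DAP family and ribosome dormancy list all 5 genes were measured, and limma called 0 for low, int, high or off against none of the same day. At an unadjusted p under 0.05 there was 1 for low on day 10, where 3.43% of all genes passed. For low on day 30 there was also 1, where 11% passed. There were 0 in the others, where 8.88% to 16.3% passed. With 5 genes, nothing is read from these counts. Dap, the relative of Dapl1, stood at -0.51 ± 0.24 in day 30 none against naive cells (limma adjusted p = 0.254). Eif5a, a translation factor found with Dapl1 on dormant egg ribosomes, stood at -1.08 ± 0.17 in the same contrast (limma adjusted p = 2.36e-05). Against naive cells limma called 2 of the 5 genes lower, Eif5a and Eef2, in each day 30 group, and 0 in any day 10 group. Of all genes, 2.35%, 1.83%, 2.06% and 1.85% were called lower in day 30 none, low, int and off. On day 10 the shares were 1.41%, 1.09%, 1.01% and 1.9% in none, low, int and high. Eif5a lay below naive on day 10 too, at -0.50, -0.45, -0.54 and -0.17 in these groups, not called. Eif5a stood at -0.86 in day 30 low, -0.97 in int and -0.83 in off. Eef2 stood at -0.39 in day 30 none, -0.34 in low, -0.53 in int and -0.44 in off. The Eif5a call was thus not specific to day 30 none, and its cause was not tested. Day 30 was also a second sort series, from which the day cannot be told apart.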

How the data were processed

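Sorted-cell RNA was amplified (Ovation Pico system), biotin-labelled and put on 43 single-colour arrays, per the labels' protocols. The values deposited by the authors are log2 signals of 41345 probe sets, from 1.46 to 13.87; the log base was judged from this range, and how background was corrected and arrays were normalized is not given in the sources used here. A single gene symbol was given for 23521 of them, several symbols for 1814 and no symbol for 16010. Single-symbol probe sets entered, 1 per gene (the one brightest on average), giving 22180 genes. Of the 23521 single-symbol probe sets, 23477 had a symbol found in the RefSeq gene table. One limma fit (version 3.58.1, R 4.3.3) covered all arrays with 9 group means and a variance trend in eBayes. Calls required an adjusted p under 0.05 (Benjamini-Hochberg, all genes). The test was tried on simulated data with planted changes. Values are log2 means ± SD and log2 fold changes ± SE.

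The members, gene lists, motifs and tests were chosen with earlier results of these data known. Named genes are the 6 most and 3 least correlated with each member (over 9 group means, leaving out unnamed genes, receptor and immunoglobulin segments, small RNAs and histones), and those with the widest span in each list. Of the resting list, 3 genes were not analysed here. Alternatives were quantile normalization, median centring, no variance trend, array weights, only the compared groups, no dim genes, the mean of all probe sets, replicate number as a block, each array left out in turn, and 4 arrays left out (naive 3 and 4, day 10 none 4, day 10 high 2). The ranking and the naive contrasts without naive 3 and 4 were added after seeing the data.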

Additional observations from a re-analysis of the deposited data

Results flagged for a closer look

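Igfbp4 in day 10 none replicate 1 read 4.38, far from the other 4 arrays of its group (3.93 to 4.04); 18 gene and group combinations were examined, and chance flags about 1 in 20. The antigen effects on Dapl1 differed between day 30 and day 10, by -1.55 for low and -1.46 for int antigen, the values by which Dapl1 was chosen.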

How the results depend on the processing

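Igfbp4 kept the direction and side of the threshold of every called contrast, and gained no call, in all 493 values recomputed under the alternatives. For Dapl1, 465 of 493 values kept theirs, or moved by less than 1 SD where no test was given. Off minus none on day 30 lost its call with median centring (-0.73, adjusted p = 0.0647), without a variance trend (-0.76, 0.0716), with array weights (-0.75, 0.127) and with the replicate block (-0.76, 0.0685), and lay at -0.81 to -0.66 on leaving out single arrays. Day 10 low minus naive lost it with median centring (-0.56, 0.0689), without a trend (-0.62, 0.0536), without 4 arrays (-0.55, 0.155) and without naive replicates 3 and 4 (-0.55, 0.272), and lay at -0.71 to -0.54 on leaving out single arrays. Day 10 none minus naive lost it without naive 3 and 4 (-0.76, 0.0529). High minus int on day 10 ran from 0.36 to 0.77 on leaving out single arrays. Where a call ended with another setting, the cause was not tested. Same-numbered samples of a day did not deviate together (median correlation 0 over 24 pairs on day 10 and 0 over 30 on day 30), so the replicate block pairs numbers only; it changed no other call. Counts of called genes moved over 1.5 times in at least 1 setting for 23 of 25 contrasts, with the reported count in brackets: 0 to 13 for day 10 low minus day 10 none (1), 170 to 581 for day 10 int minus day 10 none (276), 71 to 194 for day 30 low minus day 30 none (145), 292 to 573 for day 30 int minus day 30 none (491), 18 to 80 for day 30 off minus day 30 none (59), 78 to 354 for day 10 int minus day 10 low (120), 345 to 922 for day 10 high minus day 10 int (664), 45 to 140 for day 30 int minus day 30 low (121), 35 to 128 for day 30 off minus day 30 int (103), 8 to 51 for day 30 off minus day 30 low (37), 337 to 1071 for day 10 none minus naive (733), 374 to 1289 for day 10 low minus naive (769), 411 to 958 for day 10 int minus naive (698), 623 to 1188 for day 10 high minus naive (1068), 438 to 1007 for day 30 none minus naive (961), 433 to 1004 for day 30 low minus naive (811), 623 to 1188 for day 30 off minus naive (967), 353 to 1061 for day 30 none minus day 10 none (761), 281 to 1341 for day 30 low minus day 10 low (636), 71 to 335 for day 30 int minus day 10 int (158), 261 to 770 for day 30 off minus day 10 int (430), 5 to 16 for the low difference between days (7) and 10 to 29 for the int difference between days (20). Without detection calls, it is not known how far the primed Igfbp4 level lies above background.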
